A study of Rattus norvegicus with 16 samples.

Results

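The conjugating enzymes of phase II metabolism were described in rat liver as the genes whose symbols begin with Gsta, Gstm, Gstp, Gstt, Gsto, Gstk, Gstz, Mgst, Ugt or Sult followed by a number. This rule uses names and no measured value, and it found 41 of the 22587 rows in the deposited table. They were 23 glutathione transferases, 7 glucuronosyltransferases and 11 sulfotransferases. Their values, called normalized counts below, are the authors' read counts after division by a size factor for each library. A gene was tested where its mean over the 16 libraries was at least 14.68 normalized counts, which 32 members reached.

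Liver mRNA of male rats of the strain labelled Wistar-Wyoto, at an age of 13 weeks, gave 16 sequenced libraries that fall into 4 groups of 4. All rats had surgery. The SHAM groups had a sham operation, and the ADREX groups had a total bilateral adrenalectomy, which takes away cortex and medulla together and so both glucocorticoids and adrenaline. The exposure lasted 4 hours, to air in one group of each kind and to 0.8 ppm ozone in the other, and the series asks how adrenal stress hormones regulate liver genes after ozone. The libraries are numbered as in their titles: 1 to 4 for SHAM air, 17 to 20 for SHAM ozone, 65 to 68 for ADREX air and 81 to 84 for ADREX ozone. Groups were taken from the titles, since the treatment label of all 8 ADREX libraries gives ozone, including the 4 titled as air. The labels name no time between surgery and exposure and no hormone replacement. They do not say that each library came from a different rat, so p-values measure the spread between libraries, which may be technical.

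Phase II enzymes attach a polar group to a hormone, a bile acid, a drug or a reactive product of oxidation, which makes it soluble enough to leave the cell. Glutathione transferases add glutathione to electrophiles, glucuronosyltransferases add glucuronic acid from UDP-glucuronic acid, and sulfotransferases add a sulfate from PAPS. The liver is rich in all of them, and several are known targets of the xenobiotic receptors Nr1i2 (PXR) and Ahr, of the oxidant sensor Nfe2l2, or of growth hormone and glucocorticoids.

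Recovered reads per library numbered 8372891 to 14096246, and the 41 members together took 0.775 to 1.19% of them. The summed level of 9 hepatocyte markers was 109211 to 213026 RPM (reads in every 1000000 recovered reads) over the 16 libraries, whereas 3 of the 6 kidney and intestine markers in the table had no read in any library and the 6 summed to at most 2.52 RPM. Transcripts of nervous tissue were present as well: 25 neuron and oligodendrocyte markers summed to 44.3 RPM in SHAM air library 2 and to 4730 RPM in ADREX ozone library 82, with group means of 263, 960, 562 and 2081 RPM in the order SHAM air, SHAM ozone, ADREX air, ADREX ozone. The 3 libraries richest in these markers were ADREX ozone 82, SHAM ozone 18 and ADREX ozone 81.

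The 3 sulfotransferases that were lower after adrenalectomy, and Ugt1a8, which was higher, are shown with their promoters, 250 bases before to 50 bases after the start of the gene, because these members carry the pattern described below. The sequences are from RefSeq (build GRCr8), printed 5′ to 3′ on the strand of the gene. Capitals mark the matches to the motifs that were searched on both strands. Sult1a1 lies on the minus strand at chr1:190706063-190706362, Sult1b1 on the plus strand at chr14:20771667-20771966, Sult2a2 on the minus strand at chr1:85104483-85104782 and Ugt1a8 on the plus strand at chr9:96174649-96174948.
Sult1a1: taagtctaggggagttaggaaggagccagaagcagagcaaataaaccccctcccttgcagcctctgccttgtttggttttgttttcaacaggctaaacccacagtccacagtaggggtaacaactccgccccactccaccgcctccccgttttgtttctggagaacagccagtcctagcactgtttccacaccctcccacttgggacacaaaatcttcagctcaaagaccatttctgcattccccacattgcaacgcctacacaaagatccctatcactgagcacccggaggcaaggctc
Sult1b1: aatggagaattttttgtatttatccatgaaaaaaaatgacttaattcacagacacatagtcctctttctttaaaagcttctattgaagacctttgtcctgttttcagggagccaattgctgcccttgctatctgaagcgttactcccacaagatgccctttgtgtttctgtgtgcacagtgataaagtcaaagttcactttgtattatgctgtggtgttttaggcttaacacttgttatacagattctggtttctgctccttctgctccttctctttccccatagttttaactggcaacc
Sult2a2: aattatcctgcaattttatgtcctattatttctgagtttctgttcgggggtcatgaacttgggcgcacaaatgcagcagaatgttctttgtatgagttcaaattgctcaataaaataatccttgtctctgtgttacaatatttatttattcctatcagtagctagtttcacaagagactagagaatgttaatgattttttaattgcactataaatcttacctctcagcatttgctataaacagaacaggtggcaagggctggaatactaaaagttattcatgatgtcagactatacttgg
Ugt1a8: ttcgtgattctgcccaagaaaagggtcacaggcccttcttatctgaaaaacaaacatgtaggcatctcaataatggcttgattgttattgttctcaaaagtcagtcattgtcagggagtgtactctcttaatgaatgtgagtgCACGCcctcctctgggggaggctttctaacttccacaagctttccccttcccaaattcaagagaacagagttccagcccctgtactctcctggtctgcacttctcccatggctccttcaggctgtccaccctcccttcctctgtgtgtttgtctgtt

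In these 4 windows, Ugt1a8 held 1 match to the xenobiotic response element core GCGTG on the opposite strand (printed as CACGC), starting 107 bases before the start of the gene, and no other match to the motifs searched was found. The Ugt1a8 window is at a single start, while reads counted under this name may come from several first exons. Of the 41 members, 35 had a promoter in the RefSeq table, 37 promoters in all. Ugt2a1, which also fell, had none and is not shown. The antioxidant response element core TGACNNNGC was found in 5 of the 37, and in 12.1% of all 33469 promoters. GCGTG was found in 10 of 37, against 29.7% of all. The STAT element TTCNNNGAA was found in 4 of 37, against 8.87% of all, and the glucocorticoid response element (a motif of 2 separated blocks, given by name) in 0 of 37, against 0.415% of all. A TGACNNNGC match can overlap a GCGTG match, as it does in the Gstm5 promoter. TTCNNNGAA was added after the values had been seen. A match describes these letters only.

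After adrenalectomy, 3 of the 7 tested sulfotransferases fell. In air, 4 of the 32 tested members fell in ADREX and 0 rose: the sulfotransferases Sult1a1, Sult1b1 and Sult2a2 and the glucuronosyltransferase Ugt2a1. Under ozone all 4 again fell, the glutathione transferase Gstk1 also fell, and Ugt1a8, Gstt3 and Gstm3 rose, 8 of 32 in all. Among all 12791 genes tested, 3.53% passed between ADREX and SHAM in air and 12.5% under ozone (limma, Benjamini-Hochberg adjusted p under 0.05). The sulfotransferases' share of all reads was 0.232 to 0.298% in the SHAM air libraries and 0.138 to 0.164% in the ADREX air libraries, which do not overlap. The shares under ozone were 0.170 to 0.267% in SHAM and 0.120 to 0.194% in ADREX, and these overlap.

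By direction, 2.03% of all genes tested fell and 1.49% rose in air, and 6.48% fell and 6.04% rose under ozone. The median log2 change of the 32 members was -0.22 in air, beside 0.04 for all genes, and 0.24 under ozone, beside 0.11. The 7 sulfotransferases had a median of -1.38 in air and 0.33 under ozone. In the 6 glucuronosyltransferases the medians were -0.51 and -0.29. For the 19 glutathione transferases they were -0.15 and 0.27. Group ranges of the 4 against 4 libraries did not overlap in 5 members in air, beside 9.26% of all genes, and in 8 under ozone, beside 20.5%.

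Markers of the liver's cell types were not level across the groups. The 9 hepatocyte markers summed to 153462 to 210782 RPM in SHAM air and 118522 to 162160 RPM in ADREX air, and to 145378 to 165789 RPM and 109211 to 213026 RPM under ozone, with overlap in each case. Alb was the largest part of this sum. Single markers differed in direction in air. Apoa1 lay higher in ADREX without overlap (350 to 1439 RPM in SHAM, 1995 to 3288 RPM in ADREX), and Ttr lay lower (2405 to 2646 RPM and 1194 to 2404 RPM). The 8 Kupffer cell markers summed to 523 to 705 RPM in SHAM air, 541 to 737 RPM in SHAM ozone, and to 619 to 1285 RPM in the ADREX air libraries and 657 to 1323 RPM in the ADREX ozone libraries. The sum of the 7 cholangiocyte markers did not overlap in air, at 37.7 to 55.9 RPM in SHAM and 56.001 to 79.5 RPM in ADREX, and overlapped under ozone (51.6 to 64.8 RPM and 53.2 to 65.6 RPM). Most of this sum was Slc4a2, which by itself overlapped in air (32.6 to 46.0 RPM and 38.2 to 63.3 RPM). Of the single markers only Epcam did not overlap in air, at 3.70 to 6.71 RPM in SHAM and 9.26 to 13.5 RPM in ADREX. The 7 sinusoidal endothelial markers overlapped between ADREX and SHAM, and within SHAM they lay at 396 to 443 RPM in air and 223 to 394 RPM under ozone, without overlap. Those of stellate cells and astrocytes overlapped between ADREX and SHAM in air and under ozone, and between ozone and air in SHAM and in ADREX. The part of these markers in the changes of the members was not tested. In bulk liver, fewer cells of a type and less RNA per cell cannot be told apart. With a neural score (log2 of the summed RPM of the 25 neural markers plus 1) as a covariate, the number of members that passed was 3 in air and 6 under ozone, and after removal of the 3 libraries with the most neural marker reads it was 5 and 4, respectively. The share of all genes that passed was 1.52% and 8.52% with the covariate, and 3.23% and 3.74% without those libraries.

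**Figure D1:**
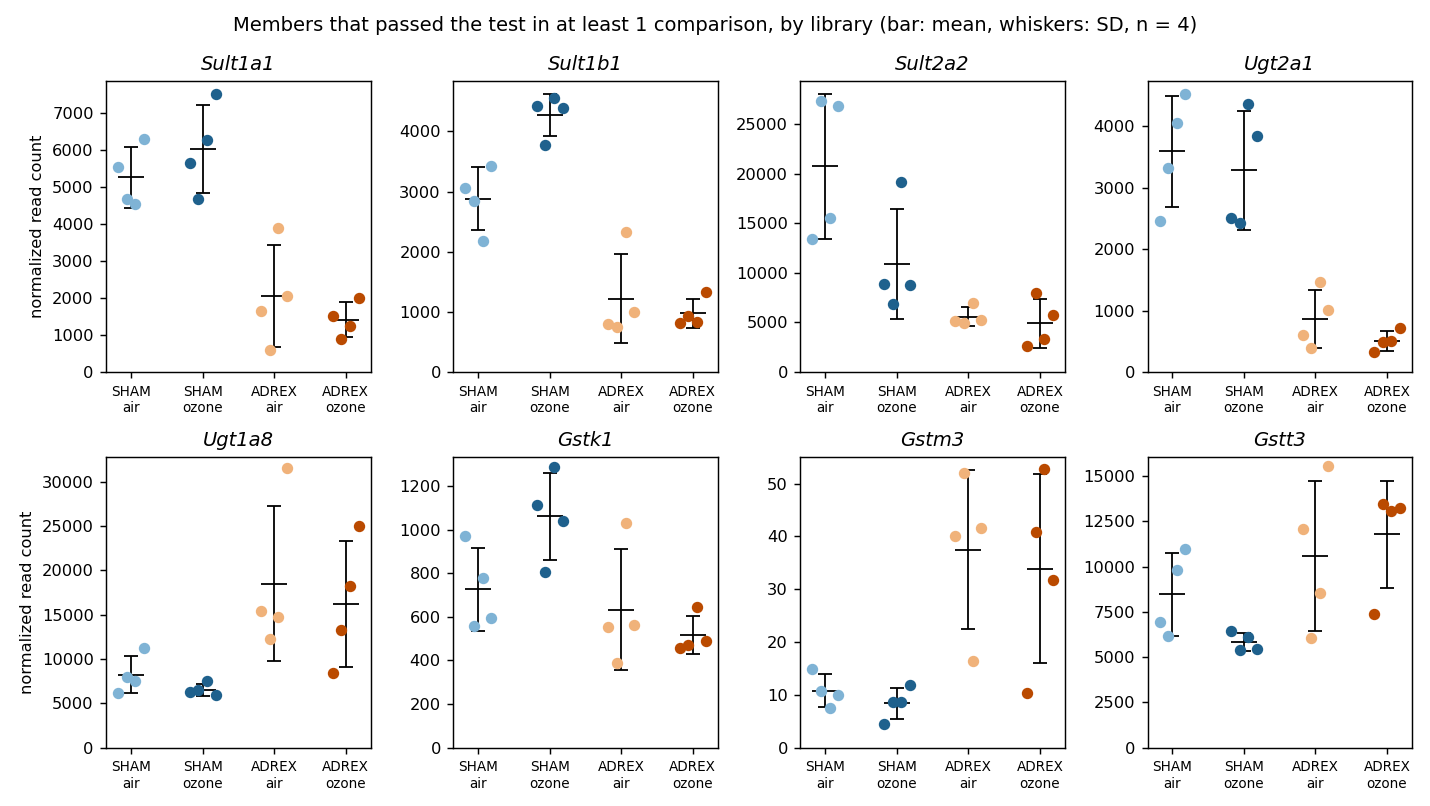
Normalized counts (linear axis) of the 8 members that passed in at least 1 comparison, 1 panel per gene, with a point for each library and a bar for the mean of each group. Sult1a1, Sult1b1 and Ugt2a1 lie lower in both ADREX groups, with ADREX air library 67 the highest of its group in each, and Ugt1a8 lies higher in both.

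Sult1b1 encodes a cytosolic sulfotransferase known for sulfating thyroid hormones and phenols. Its normalized counts were 3066, 2843, 2178 and 3423 in SHAM air and 4416, 3765, 4550.1 and 4383 in SHAM ozone. In ADREX air they were 805, 756, 2323 and 995, and in ADREX ozone 819, 927, 828 and 1333. Every ADREX ozone library lay below every SHAM ozone library, and in air only ADREX library 67 reached into the SHAM range. Sult1b1 fell by 1.38 ± 0.28 (SE) on the log2 scale in air, 2.605-fold (95% confidence interval 1.73 to 3.93, limma adjusted p = 0.0124). Under ozone it fell by 2.16 ± 0.28 (SE), 4.46-fold (95% interval 2.95 to 6.73, limma adjusted p = 0.0003902). Folds here and below are on the scale of log2(normalized count + 1). The call in air was lost without ADREX air library 66 (adjusted p = 0.0518) and with only the 8 air libraries in the fit (0.0678). The call under ozone held in all 30 alternative settings run.

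Sult1a1 encodes the main phenol sulfotransferase, which acts on simple phenols and many drugs. It stood at 5557, 4676, 4534 and 6299 normalized counts in SHAM air and at 5661, 4684, 6290.2 and 7527 in SHAM ozone. The ADREX libraries had 1661, 593, 3906 and 2068 in air and 1521, 887, 1236 and 2009 under ozone. All 8 ADREX values were below all 8 SHAM values, and ADREX air library 67 was again the nearest to them. Sult1a1 fell by 1.64 ± 0.40 (SE) on the log2 scale in air, 3.11-fold (1.73 to 5.59, limma adjusted p = 0.0328), and by 2.14 ± 0.40 under ozone, 4.396-fold (2.44 to 7.91, adjusted p = 0.00346). In air the call was lost without any 1 of 6 libraries, SHAM air 1, 2 and 4, ADREX air 65, 66 and 68 (adjusted p = 0.0582 to 0.105), with edgeR (0.0764), with the neural score as covariate (0.1) and in the fit to the air libraries alone (0.1096). Under ozone it was lost only without the 3 libraries richest in neural markers (0.0526, log2 change -2.03), among the 30 settings run.

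Sult2a2 belongs to the hydroxysteroid sulfotransferases, which act on adrenal androgens and bile acids. SHAM air libraries held 13424, 27321, 15546 and 26806 normalized counts, and SHAM ozone libraries 8837, 6838, 19148 and 8747. ADREX air libraries held 5183, 4947, 6998 and 5213, and ADREX ozone libraries 2602, 7961, 3307 and 5751. In air the groups were far apart, while under ozone ADREX library 82 lay above SHAM library 18. The log2 level fell by 1.84 ± 0.36 (SE) in air, 3.57-fold (2.11 to 6.06, limma adjusted p = 0.01003), and by 1.17 ± 0.36 under ozone, 2.25-fold (1.33 to 3.82, adjusted p = 0.0433). The call in air held without each library in turn. Under ozone it was lost without any 1 of 8 libraries, SHAM ozone 17, 19 and 20, ADREX air 65, 66 and 68, ADREX ozone 81 and 83 (adjusted p = 0.0502 to 0.119), with no filter on low values (0.0607), with the neural covariate (0.0861), without the 3 neural-rich libraries (0.0687, log2 change -1.39) and in the fit to the ozone libraries alone (0.0842). Within SHAM, the ozone mean was 10893 ± 5580.3 normalized counts (SD, n = 4) and the air mean 20775 ± 7316. This gave a log2 change of -0.98 ± 0.36 (SE) with adjusted p = 0.174 by limma, and 0.0498 with array quality weights.

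The other sulfotransferases did not pass between ADREX and SHAM. Sult1c2a, of the 1C class, averaged 6712 ± 942 in SHAM air and 5317 ± 1603 in SHAM ozone, against 8967 ± 2614 and 8184 ± 1623 in the ADREX air and ADREX ozone groups (SD, n = 4). Its log2 change was 0.38 ± 0.25 (SE) in air and 0.65 ± 0.25 (SE) under ozone (limma adjusted p = 0.389 and 0.0896), and with array quality weights the second was 0.0360. For Sult1c3 the changes were -0.19 ± 0.20 (SE) and 0.33 ± 0.20 (SE). These 2 genes are thus not shown to differ, and their 95% intervals under ozone were 0.13 to 1.17 and -0.09 to 0.75, next to -2.75 to -1.56 for Sult1b1. Sult1c2, of few reads, and Sult4a1, whose level ranged widely between libraries, are described further below.

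Among the glucuronosyltransferases, Ugt2a1 fell and Ugt1a8 was higher. Ugt2a1, an enzyme best known from the olfactory lining, was measured at 2454, 3315, 4060.1 and 4525 normalized counts in SHAM air and 2512, 2421, 4363 and 3842 in SHAM ozone. After adrenalectomy it was measured at 600.2, 389, 1461 and 1003 in air and 323, 483, 505 and 715 under ozone. All 8 ADREX libraries lay below all 8 SHAM libraries. Ugt2a1 fell by 2.19 ± 0.35 (SE) on the log2 scale in air, 4.57-fold (2.73 to 7.65, limma adjusted p = 0.00314), and by 2.70 ± 0.35 under ozone, 6.51-fold (3.89 to 10.9, adjusted p = 0.0003902). Both calls held in all 30 alternative settings run, with largest adjusted p-values of 0.0204 and 0.00947. In RefSeq, Ugt2a1 and Sult1b1 are direct neighbours on chromosome 14, and Sult1d1 lies on the other side of Sult1b1. Sult1d1, at 1 to 29 reads in the libraries where it was found, was too low to be tested.

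Ugt1a8 is the only member of the Ugt1 locus among the 41 symbols. The enzymes of that locus share their downstream exons, and Ugt1a8 is also listed as a synonym of Ugt1a7c, so reads of several first exons may be counted under this name. Its normalized counts were 6213, 8021, 7534 and 11251 in SHAM air and 15439.6, 12299, 14794 and 31524 in ADREX air. Under ozone they were 6227, 6537, 7512 and 5952 in SHAM and 8433, 13264, 18239.8 and 24995 in ADREX. In both settings every ADREX library was above every SHAM library, and ADREX air library 68 had more than any other library. Ugt1a8 rose by 1.20 ± 0.32 (SE) on the log2 scale under ozone, 2.3-fold (1.45 to 3.65, limma adjusted p = 0.0215). In air the log2 difference was 1.10 ± 0.32 (SE), 2.14-fold, with adjusted p = 0.0666, 0.0403 without ADREX ozone library 81, 0.0415 without ADREX ozone library 84 and 0.01003 by DESeq2. The call under ozone was lost without any 1 of 4 libraries, SHAM ozone 17 and 20, ADREX ozone 83 and 84 (adjusted p = 0.0544 to 0.0624).

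The Ugt2b enzymes, which conjugate steroid hormones and bile acids, did not pass in limma. Ugt2b37 had 15681, 18691, 12828 and 22969.5 in SHAM air and 9541, 10589.7, 14505 and 10018 in ADREX air. Only ADREX air library 67 reached above the lowest SHAM air library. Its log2 change was -0.64 ± 0.20 (SE) in air (limma adjusted p = 0.0965; 0.0375 by DESeq2, 0.0373 without SHAM air library 3 and 0.0359 without ADREX air library 67) and -0.30 ± 0.20 (SE) under ozone (adjusted p = 0.3302). Ugt2b10 had a log2 change of -0.72 ± 0.23 (SE) in air and -0.55 ± 0.23 (SE) under ozone, where its group ranges did not overlap, and Ugt2b35 one of -0.39 ± 0.16 (SE) and -0.27 ± 0.16 (SE). DESeq2 gave Ugt2b10 an adjusted p of 0.0397 in air and 0.0481 under ozone. All 6 tested glucuronosyltransferases had an unadjusted p under 0.05 in air, 4 of them lower and 2, Ugt1a8 and Ugt8, higher in ADREX. Of all 12791 genes, 2579 had such a p. Ugt8 rests on 2, 0, 62 and 5 reads in SHAM air and 36, 19, 23 and 145 in ADREX air. The 95% interval of its log2 change was 0.03 to 5.33, and it is set apart below with the neural markers.

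**Figure D2:**
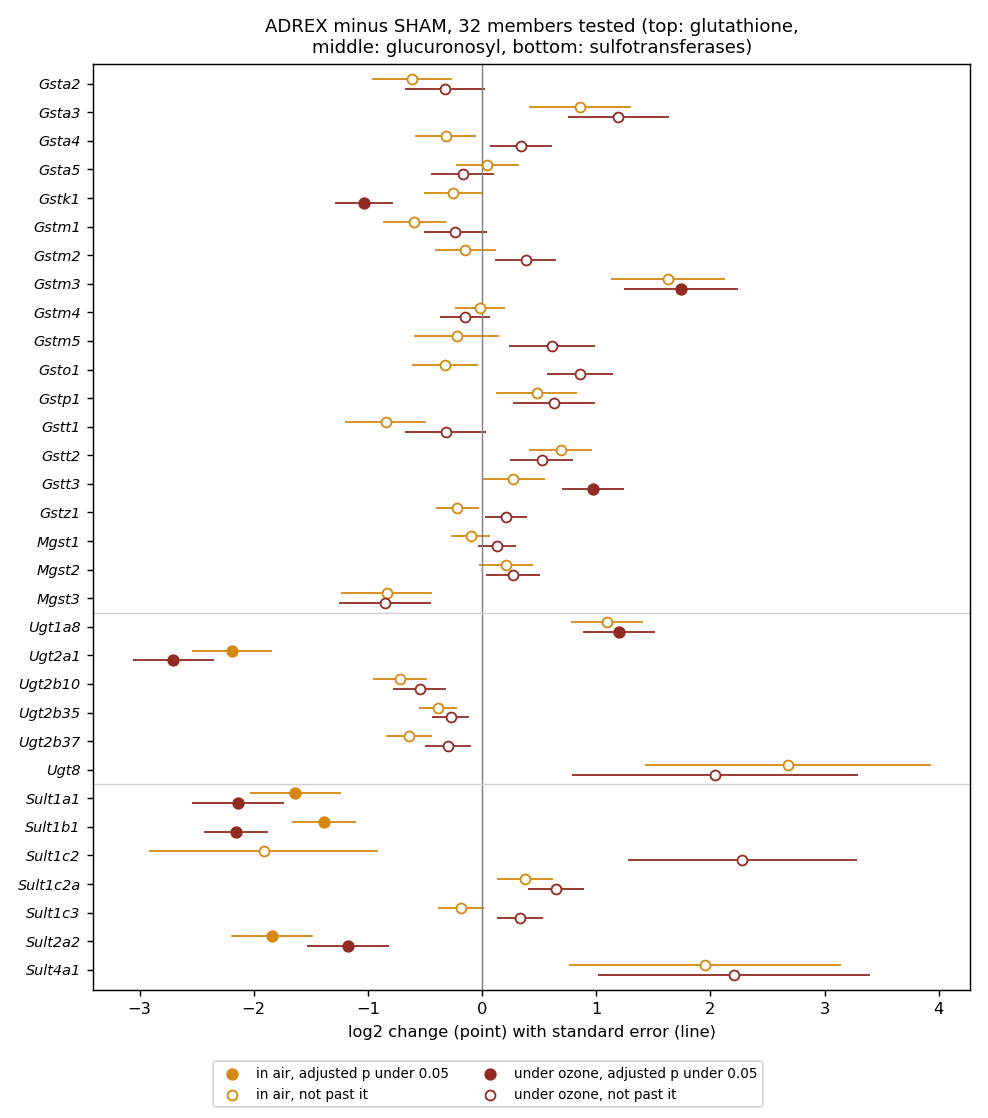
Log2 change of ADREX against SHAM for the 32 tested members, in air and under ozone, with standard errors as bars and filled points for limma adjusted p under 0.05. The sulfotransferases Sult1a1, Sult1b1 and Sult2a2 and Ugt2a1 lie to the left of 0 in both settings, from -1.17 to -2.70, and most glutathione transferases lie within 1 of 0.

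Of the glutathione transferases, 3 of the 19 tested (15.8%) passed under ozone, beside 12.5% of all 12791 genes. In air 0 of the 19 tested passed in limma and in edgeR, with 4 at an unadjusted p under 0.05, and 1, Gstm3, passed in DESeq2. Across all genes in air, 2579 had an unadjusted p under 0.05, and 3.53% passed in limma and 6.53% in DESeq2. Under ozone Gstt3 and Gstm3 rose and Gstk1 fell. Gstk1 is the kappa class enzyme of mitochondria and peroxisomes. It was found at 1111, 806, 1287 and 1041 normalized counts in SHAM ozone and at 455, 472, 644 and 489 in ADREX ozone, without overlap. The air libraries had 970.3, 559.7, 779 and 594 in SHAM and 553, 388, 1031 and 561 in ADREX, which overlap. Under ozone Gstk1 fell by 1.04 ± 0.26 (SE) on the log2 scale, 2.05-fold (1.41 to 2.98, limma adjusted p = 0.01603), and in air its change was -0.25 ± 0.26 (SE) (adjusted p = 0.587). The difference between these changes was -0.78 ± 0.36 (SE) with a 95% interval of -1.55 to -0.02 and adjusted p = 0.377, so they are not shown to differ. The call was lost without the 3 libraries richest in neural markers (adjusted p = 0.1095, log2 change -1.02).

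Gstt3, a theta class enzyme that lies beside Gstt1 on chromosome 20, stood at 6428, 5420.4, 6138 and 5439 normalized counts in SHAM ozone. The ADREX ozone libraries had 7380.0, 13432, 13096 and 13241, all above the SHAM ozone libraries, with library 81 well below the other 3. In air the values were 6942, 6155, 9805 and 10976 in SHAM and 12094, 6081, 8566 and 15558 in ADREX, which overlap. Gstt3 rose by 0.97 ± 0.28 (SE) on the log2 scale under ozone, 1.96-fold (1.31 to 2.93, limma adjusted p = 0.0303), beside 0.27 ± 0.28 (SE) in air (adjusted p = 0.587). The difference of these changes had an adjusted p of 0.447. The call was lost without any 1 of 7 libraries, SHAM ozone 17, 18, 19 and 20, ADREX ozone 82, 83 and 84 (adjusted p = 0.05404 to 0.0809), with the neural score as covariate (0.0929) and without the 3 neural-rich libraries (0.0825, log2 change 1.14). Its neighbour Gstt1 had changes of -0.84 ± 0.35 (SE) in air and -0.32 ± 0.35 (SE) under ozone, neither of which passed in limma with all libraries, and Gstt1 passed in air without ADREX air library 67 (adjusted p = 0.0410).

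Gstm3 belongs to the mu class, a cluster of closely related genes on chromosome 2, and its symbol is also listed as a synonym of Gstm5 and Gstm7, so its identity is uncertain. It rests on few reads: 10, 9, 6 and 5 in SHAM air and 3, 7, 8 and 8 in SHAM ozone, against 34, 49, 11 and 34 in the ADREX air libraries and 9, 39, 48 and 22 in those of ADREX ozone. In normalized counts the SHAM ozone libraries had 4.53, 8.56, 8.71 and 11.8 and the ADREX ozone libraries 10.3, 40.9, 52.7 and 31.7. ADREX ozone library 81 lay within the SHAM ozone range. In air the groups did not overlap, at 14.9, 10.8, 7.5 and 10.03 in SHAM and 40.01, 51.9, 16.4 and 41.6 in ADREX. Gstm3 rose by 1.74 ± 0.50 (SE) on the log2 scale under ozone, 3.35-fold (1.62 to 6.95, limma adjusted p = 0.0313). The difference in air was 1.63 ± 0.50 (SE), with adjusted p = 0.08203, 0.0301 without ADREX air library 67, 0.0454 without ADREX ozone library 81 and 0.0238 by DESeq2. Under ozone the call was lost without any 1 of 5 libraries, SHAM ozone 17 and 19, ADREX ozone 82, 83 and 84 (adjusted p = 0.0563 to 0.0981), and in the fit to the ozone libraries alone (0.0598).

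The genes named for the other glutathione transferase classes did not pass in any comparison. Mgst1, a membrane-bound enzyme that also reduces lipid peroxides, stood at 24729 to 38025 normalized counts over the 16 libraries, a ratio of 1.54. Its log2 change after adrenalectomy was -0.10 ± 0.17 (SE) in air and 0.13 ± 0.17 (SE) under ozone. Gstz1, which also serves tyrosine breakdown as maleylacetoacetate isomerase, had changes of -0.22 ± 0.19 (SE) and 0.21 ± 0.19 (SE). For Gstm2, of the mu class, they were -0.15 ± 0.27 (SE) and 0.38 ± 0.27 (SE). Gsta2, of the alpha class that makes up much of the liver's soluble glutathione transferase, had -0.61 ± 0.35 (SE) and -0.32 ± 0.35 (SE). Its values in ADREX air were 1207, 1691, 4057 and 1607, with library 67 above all 15 others, and the symbol is shared as a synonym with Gsta5. Gstp1, the pi class enzyme that is scarce in normal rat hepatocytes, ranged from 39.6 to 204 normalized counts, with changes of 0.48 ± 0.36 (SE) and 0.63 ± 0.36 (SE).

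Gsto1, an omega class enzyme that reduces dehydroascorbate and mixed disulfides, did not overlap between ADREX and SHAM under ozone. It stood at 1383, 1485, 1491 and 1318 normalized counts in SHAM ozone and at 1863, 2187, 2166 and 4962 in ADREX ozone, where library 84 had more than any other library. The log2 difference was 0.86 ± 0.29 (SE), 1.81-fold, with limma adjusted p = 0.0625, 0.0484 without SHAM air library 3, 0.0491 without ADREX ozone library 81 and 0.0272 by DESeq2. In SHAM air the 4 libraries had 1607, 3115, 1563 and 3305, and in ADREX air 1606, 1560.0, 1876 and 2233. The SHAM ozone libraries were thus below every SHAM air library, with a log2 change of -0.67 ± 0.29 (SE) that did not pass (adjusted p = 0.2398). Gsta3 had a log2 difference of 1.19 ± 0.45 (SE) under ozone (adjusted p = 0.0851), which passed without ADREX ozone library 81 (0.00939) and by DESeq2 (0.0198), and its symbol is a synonym of Gsta1.

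Rescaling the libraries by TMM moved the median change of all genes under ozone from 0.11 to 0.01. With it the 3 rises became smaller, from 0.97 to 0.87 for Gstt3, 1.20 to 1.10 for Ugt1a8 and 1.74 to 1.65 for Gstm3. The members that fell went lower, Ugt2a1 from -2.70 to -2.81. Rescaling shifts all genes of a comparison by nearly the same amount, so changes relative to the median stay as they were and test nothing. No called member changed direction. Leaving out 1 library changed the number of called members as well. In air it was 2 without ADREX air library 66, where 1.52% of all genes passed, and 7 without ADREX air library 67, where 6.44% did. Under ozone it was 4 without SHAM ozone library 17 or ADREX ozone library 83, beside 6.65% and 8.81% of all genes. It was 5 without SHAM ozone 19, SHAM ozone 20 or ADREX ozone 84, beside 8.74%, 6.15% and 12% of all genes.

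Ozone itself was not accompanied by a change in any tested member that passed the test. In SHAM 0 of 32 passed in limma, edgeR and DESeq2, with 4 at an unadjusted p under 0.05, where 1.58% of all genes tested passed in limma, 0.946% higher and 0.633% lower. In ADREX it was again 0 of 32 in all 3 tools, with 2 unadjusted, where 0.125% of all genes passed in limma, 0.0391% higher and 0.086% lower. The test of the difference between the ozone effects also gave 0 of 32 in all 3 tools, with 3 unadjusted, beside 0.109% of all genes in limma, 0.0235% higher and 0.086% lower. The other tools called more of all genes for ozone in ADREX. DESeq2 called 4.19% in SHAM, 4.46% in ADREX and 1.94% for the difference, and edgeR 1.38%, 0.383% and 0.188%. An unadjusted p under 0.05 was found for 2358 of all 12791 genes in SHAM, 2282 in ADREX and 1645 for the difference. Median log2 changes of the members were -0.17 in SHAM, 0.15 in ADREX and 0.24 for the difference, beside 0.01, 0.06 and 0.07 for all genes. Comparisons within SHAM and between SHAM and ADREX under ozone share the SHAM ozone libraries. Group ranges did not overlap for 3 members in SHAM, beside 11.1% of all genes, and for 1 in ADREX, beside 9.97%.

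Those 3 were Sult1b1, Gsto1 and Sult1c2. Sult1b1 was higher in each SHAM ozone library than in any SHAM air library, with a log2 change of 0.59 ± 0.28 (SE) and limma adjusted p = 0.276. In ADREX its ozone change was -0.19 ± 0.28 (SE), and the difference of the 2 ozone effects was -0.77 ± 0.40 (SE) with a 95% interval of -1.61 to 0.07 (adjusted p = 0.413). Sult1c2, of the 1C class, had the lowest adjusted p of any member for ozone in SHAM. Its reads numbered 31, 17, 34 and 10 in SHAM air and 0, 6, 5 and 0 in SHAM ozone, so the change rests on few reads. In ADREX they numbered 4, 32, 0 and 18 in air and 10, 5, 20 and 11 under ozone, with no separation. The log2 change in SHAM was -3.52 ± 1.002 (SE) (adjusted p = 0.0862), 0.0361 without ADREX air library 67, 0.0186 with array quality weights and 0.0479 with the neural score as covariate. Its mean of 16.1 normalized counts was the closest above the limit for testing.

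The intervals bound the ozone effects that these libraries allow. In SHAM the 95% interval of the log2 change was -0.97 to 0.36 for Ugt1a8, -0.88 to 0.61 for Ugt2a1, -0.66 to 1.04 for Sult1a1 and -1.74 to -0.22 for Sult2a2. It was narrower for Mgst1, -0.40 to 0.33, and Gstz1, -0.35 to 0.43. In ADREX it was -1.39 to 0.09 for Ugt2a1, 0.08 to 0.86 for Gstz1 and -0.17 to 0.56 for Mgst1. Gstm5 and Gstz1 had an unadjusted p under 0.05 in ADREX, with log2 changes of 0.94 ± 0.37 (SE) and 0.47 ± 0.19 (SE) and adjusted p-values of 0.217 and 0.217.

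**Figure D3:**
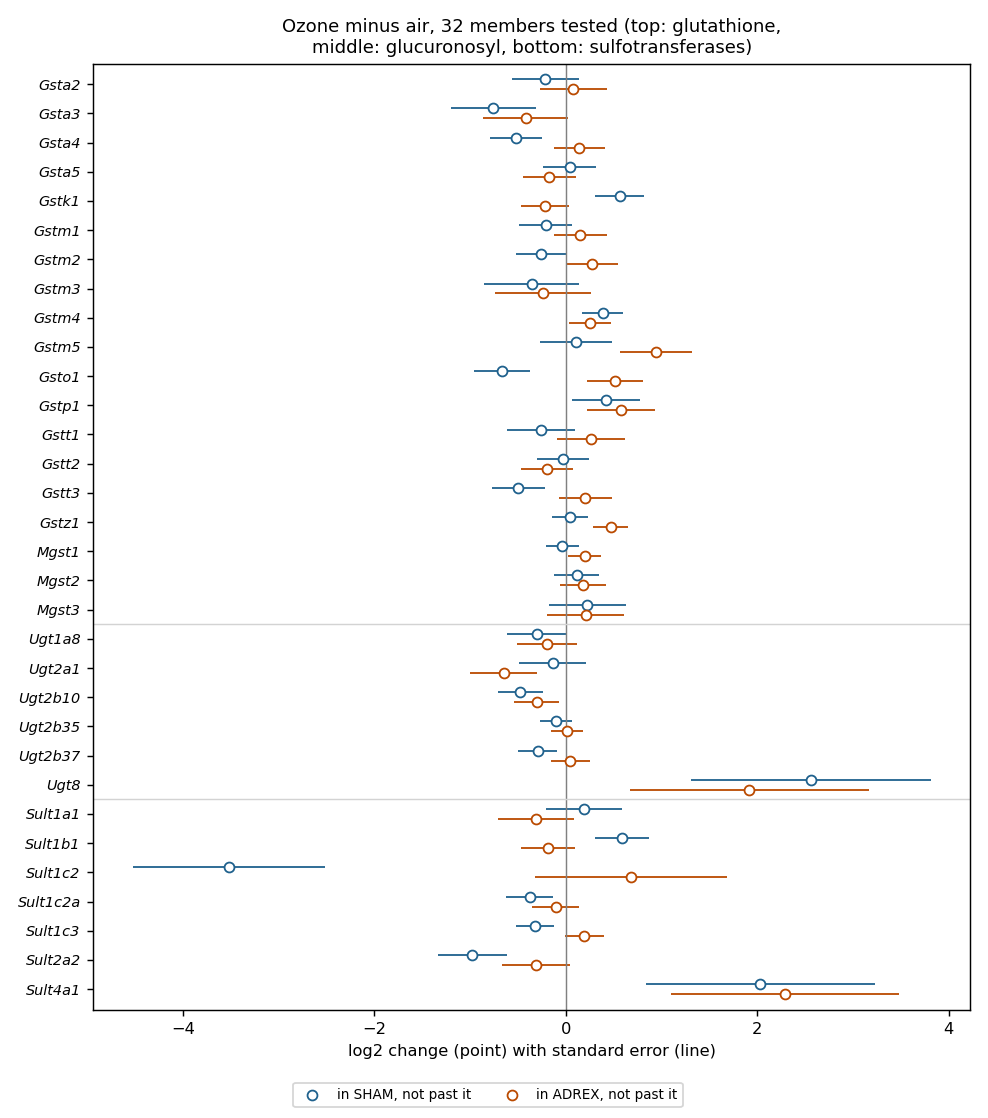
Log2 change of ozone against air for the 32 tested members, in SHAM and in ADREX, with standard errors as bars. No member passed in either, and Sult1c2, of few reads, and Sult4a1 and Ugt8, which range widely between libraries, have the widest bars.

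Ugt8 and Sult4a1 are set apart from the rest by their range. Ugt8 makes the galactolipid of myelin, and Sult4a1 is a sulfotransferase known mainly from brain. Ugt8 was found at 2.98, 0, 77.5 and 10.03 normalized counts in SHAM air and 13.6, 465, 71.8 and 7.37 in SHAM ozone. The ADREX libraries had 42.4, 20.1, 34.3 and 177 of it in air and 237, 498, 88.9 and 109 under ozone. Sult4a1 was found at 4.46, 0, 90.0 and 10.03 in SHAM air and at 30.2, 208, 58.8 and 2.95 in SHAM ozone, and in ADREX at 38.8, 19.1, 17.9 and 80.7 in air and 208, 427, 89.96 and 84.9 under ozone. Both were highest in ADREX ozone library 82, and SHAM ozone 18 and ADREX ozone 81 came next, the same 3 libraries that were richest in the 25 neural markers, which neither gene is part of. SHAM air library 2, the poorest in those markers, had no read of either, which allows up to 0.239 RPM (3 reads, counting error only). Neither passed: Sult4a1 changed by 2.29 ± 1.19 (SE) on the log2 scale with ozone in ADREX, where its groups did not overlap (limma adjusted p = 0.328), and Ugt8 by 1.92 ± 1.25 (SE) (0.453). The part of nervous tissue RNA in these 2 genes was not tested further.

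**Figure D4:**
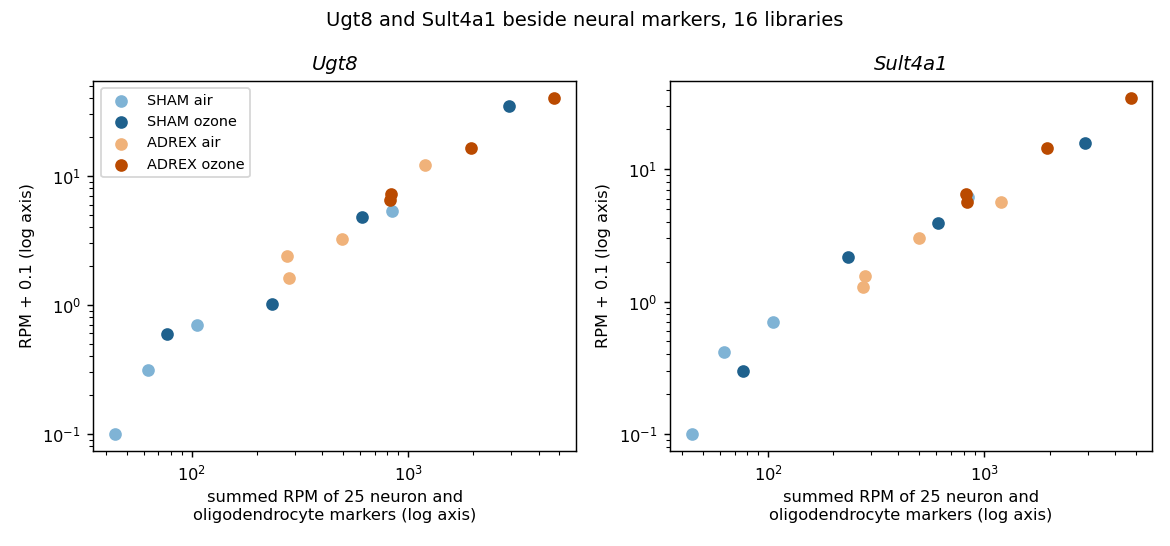
RPM of Ugt8 and Sult4a1 plus a small constant (vertical, log scale) against the summed RPM of 25 neuron and oligodendrocyte markers (horizontal, log scale), 1 point per library, coloured by group. The 3 libraries at the right, with 1942 to 4730 RPM, are also the highest for both genes.

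The 9 members under 14.68 normalized counts were Gstm6, Gstm6l, Gsto2, Gstt4, Sult1d1, Sult2b1, Sult5a1, Sult6b1 and Ugt2b7. Gsto2, at a mean of 13.1, was the closest below the limit, and Gstt4 had no read in any library. Ugt2b7 had 1 read in 1 library, and Sult6b1 at most 2 reads in any. Gstm6 had 0 to 3 reads in each SHAM library and 5 to 13 in each ADREX library. With no filter on low values it passed under ozone, with a log2 change of 2.27 and limma adjusted p = 0.00875. Its cluster of similar mu class genes makes the assignment of so few reads uncertain.

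**Figure D5:**
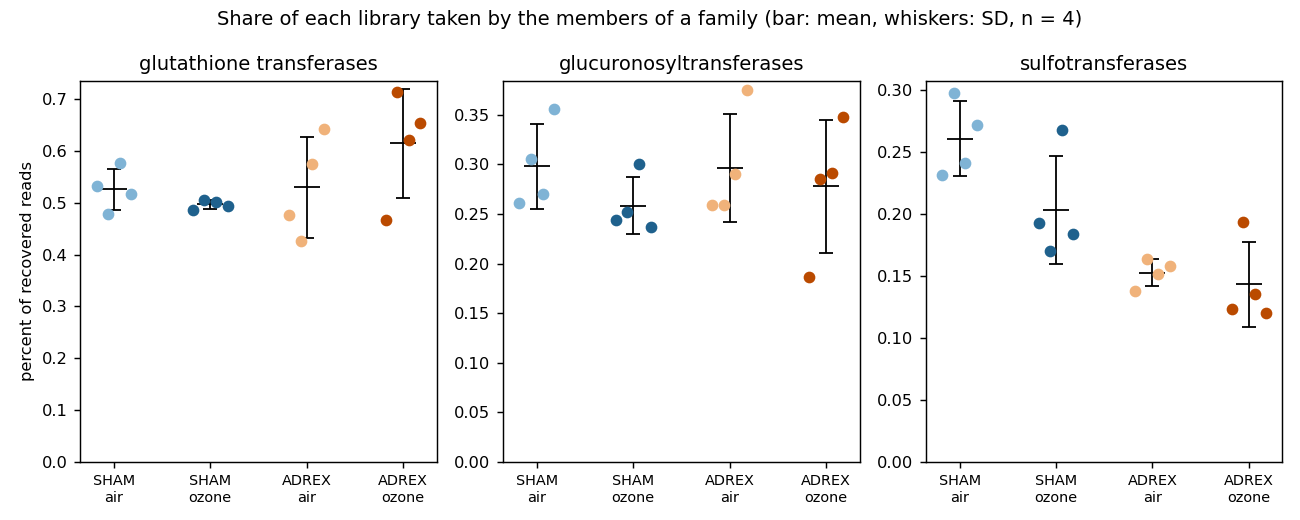
Share of each library's recovered reads, in percent, taken by the glutathione transferases, the glucuronosyltransferases and the sulfotransferases, with a point for each library and a bar for each group's mean. The sulfotransferase share is lower in ADREX air, 0.138 to 0.164%, than in SHAM air, 0.232 to 0.298%, whereas the other 2 families overlap between all groups. Under ozone the sulfotransferase shares of ADREX and SHAM overlap, at 0.120 to 0.194% and 0.170 to 0.267%.

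Between ADREX and SHAM, the summed shares of the families overlapped in air and under ozone, except for the sulfotransferases in air. Glutathione transferases took 0.526 ± 0.040% of reads in SHAM air, 0.497 ± 0.009% in SHAM ozone, and of reads in ADREX 0.530 ± 0.097% in air and 0.614 ± 0.106% under ozone (SD, n = 4). Glucuronosyltransferases took 0.298 ± 0.043%, 0.258 ± 0.029%, 0.296 ± 0.054% and 0.278 ± 0.067% in that order. Sulfotransferases took 0.261 ± 0.030%, 0.204 ± 0.044%, 0.153 ± 0.011% and 0.143 ± 0.034%. Sult2a2 alone had 946 to 1813 RPM in SHAM air and 356 to 466 RPM in ADREX air, so it carried much of that difference. Sult1c2a went the other way, at 343 to 543 RPM in SHAM air and 388 to 907 RPM in ADREX air, with overlap. A share of reads counts long transcripts more than short ones, so these shares do not compare the families' transcript numbers.

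Of the 13 genes that supply cofactors to these enzymes, 3 rose and 2 fell in ADREX under ozone, and 0 passed in air (2 at an unadjusted p under 0.05, 0 by edgeR and DESeq2). Papss1, which makes the sulfate donor PAPS, rose by 0.98 ± 0.22 (SE) on the log2 scale, from 84.97 ± 26.04 to 164 ± 18.8 normalized counts (SD, n = 4, limma adjusted p = 0.00931). Slc35d1, a carrier of UDP-glucuronic acid into the endoplasmic reticulum, fell by 0.70 ± 0.15 (adjusted p = 0.00671). Tkt, of the pentose phosphate pathway, fell by 0.75 ± 0.20 (adjusted p = 0.0248). The other 2 that rose were Ugp2, which makes UDP-glucose, and Gss, the last enzyme of glutathione synthesis, chosen for naming after their values were seen. The median log2 change of the 13 was 0.30, beside 0.11 for all genes. Under ozone 12.5% of all genes passed, and in air 3.53%, where 2579 of 12791 had an unadjusted p under 0.05.

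Other conjugating and detoxifying enzymes, 13 tested, changed singly. With ozone in SHAM, Baat and Glyat, which join bile acids and other acyl groups to glycine or taurine, fell by 0.83 ± 0.17 and 0.82 ± 0.19 (SE) on the log2 scale (limma adjusted p = 0.0226 and 0.0396). Baat went from 16915 ± 1799 to 9721 ± 2502 normalized counts, with 12254 ± 822 in ADREX air and 12641 ± 1076 in ADREX ozone. Gnmt, the glycine methyltransferase, fell by 2.14 ± 0.56 in ADREX air (adjusted p = 0.0455), where edgeR called 0 of the 13. Ephx1, the microsomal epoxide hydrolase, rose by 1.13 ± 0.23 in ADREX under ozone, from 3573 ± 281 to 8080.4 ± 2263 (adjusted p = 0.00525). Over all genes, 1.58% passed for ozone in SHAM, and 3.53% in air and 12.5% under ozone for ADREX against SHAM.

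Of 7 tested exporters, 0 rose in ADREX, Abcc2 fell in air and under ozone, and Abcb11 passed only under ozone, where it fell. The shares of all genes that passed were 3.53% in air and 12.5% under ozone. Abcc2 carries glutathione and glucuronide conjugates into bile, and it averaged 24666 ± 5974 normalized counts in SHAM air and 15754 ± 3016 in SHAM ozone, against 7669.9 ± 1916 and 6791 ± 3171 in the ADREX air and ADREX ozone groups. It fell by 1.69 ± 0.31 (SE) on the log2 scale in air and 1.32 ± 0.31 under ozone (limma adjusted p = 0.00667 and 0.0118). Abcb11, the bile salt export pump, fell by 1.04 ± 0.23 under ozone (adjusted p = 0.00931). Of 8 enzymes that break conjugates down, such as Gusb and Ggt5, 0 passed in any comparison in limma, edgeR or DESeq2, with 3 at an unadjusted p under 0.05 in air and 0 under ozone. Such a p was found for 2579 of all 12791 genes in air and 3986 under ozone.

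Of 21 regulators, 1 rose and 1 fell in ADREX air, beside 3.53% of all genes that passed, and 2 rose and 2 fell under ozone, beside 12.5%. Maff, a small Maf protein that pairs with Nfe2l2, rose in both, by 2.35 ± 0.40 and 2.31 ± 0.40 (SE) on the log2 scale, from 25.4 ± 7.98 to 143 ± 62.8 normalized counts in air (limma adjusted p = 0.00415 and 0.00216). Nr1h4, the bile acid receptor FXR, fell by 0.78 ± 0.20 in air (adjusted p = 0.0382). Under ozone Nr1h3 (LXR alpha) rose by 0.87 ± 0.19 and Nr1i2 (PXR) fell by 0.95 ± 0.26 (adjusted p = 0.00952 and 0.0281). Mafg was the other that fell, named after its value was seen.

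Targets commonly used to read those regulators moved in different directions. Of 13 tested, Cyp4a1, a PPAR alpha target, rose by 1.29 ± 0.29 (SE) on the log2 scale in ADREX air (limma adjusted p = 0.02001) and 0 fell. Under ozone Cyp3a2 rose by 1.76 ± 0.38 and Cyp2b2 fell by 1.37 ± 0.38 (adjusted p = 0.00824 and 0.0289). Fkbp5, a glucocorticoid target, rose by 2.08 ± 0.30 with ozone in SHAM, from 481 ± 88.8 to 2104 ± 693 normalized counts (adjusted p = 0.00287). Its means in ADREX were 325 ± 90.8 in air and 365 ± 137 under ozone, and it fell by 2.56 ± 0.30 against SHAM under ozone (adjusted p = 0.000211). Genes that passed made up 1.58% of all for ozone in SHAM, and 3.53% in air and 12.5% under ozone for ADREX against SHAM.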

How the data were processed

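Liver RNA was measured in 16 libraries. Per the labels' protocols, mRNA was selected and libraries were made with a Wafergen PrepX kit. The submitters' processing notes name Partek, DESeq2 and build rn6. Which aligner, counter and annotation were used is not given in the sources used here. Each value in the deposited table is a signal that the authors made by dividing each library's read counts by a size factor. Dividing by each column's step recovered whole reads for 100% of values (within 0.01). A symbol that occurs more than once stood in 4 rows.

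Values were tested as log2(value + 1) with limma-trend 3.58.1 (R 4.3.3), in a two-sided test and a model of 4 group means over 16 libraries (12 residual and 4.42 prior degrees of freedom), with Benjamini-Hochberg adjustment over 12791 genes. Errors are SE for log2 changes and SD for means. On the recovered reads, edgeR 4.0.16 and DESeq2 1.42.0 were alternatives, beside other scalings, filters, weights and thresholds, a neural score, and each library left out. Scripts were tested on simulated data. The members, lists, motifs and markers were chosen with earlier results of these data known. Members were named if they passed in 1 comparison or had the highest mean of their subfamily. That choice compares no transcript numbers, since no gene lengths are given. Up to 3 genes per list and comparison were named by smallest adjusted p. All 41 symbols matched a current RefSeq (GRCr8) symbol, and 6 are also a synonym of another gene (Gsta2, Gsta3, Gsta5, Gstm3, Gstm4 and Ugt1a8). Coordinates are given for promoters only.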

Additional observations from a re-analysis of the deposited data

Results flagged for a closer look

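Each of the 18 named members was examined in each group of 4 libraries, 72 groups in all, for a highest or lowest library whose distance from the nearest other took up most of the group's range. This was so in 13 groups, and in 16 of 128 over all tested members. About 1 in 20 would be expected by chance only if the values had a normal spread. The counts were not put on a log scale, and the share over all genes was not computed. An excess in the members is therefore not shown.

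ADREX air library 67 stood above its group in 3 of them, with 4057 normalized counts of Gsta2 (1207 to 1691 in the other 3 libraries), 2323 of Sult1b1 (756 to 995) and 6998 of Sult2a2 (4947 to 5213). ADREX air library 68 stood above its group with 31524 normalized counts of Ugt1a8 (12299 to 15439.6) and 177 of Ugt8 (20.1 to 42.4). SHAM ozone library 19 stood above its group with 19148 normalized counts of Sult2a2 (6838 to 8837) and 35059 of Mgst1 (30741 to 31436). SHAM ozone library 18 had 464.9 normalized counts of Ugt8 (7.37 to 71.8), above its group, and 8318 of Gstm2 (9095 to 9241), below it. In SHAM air library 3, Sult4a1 had 90.0 normalized counts and Ugt8 77.5, above 0 to 10.03 in the other 3 libraries for each gene. ADREX ozone library 84 had 4962 normalized counts of Gsto1 (1863 to 2187). ADREX ozone library 81 had 7380.0 of Gstt3, below 13096 to 13432 in the other 3.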

How the results depend on the processing

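No paired analysis was possible because the replicate numbers differ between all groups. For ozone in ADREX and for the difference between the ozone effects, 0 of 32 members passed under every alternative run. For ozone in SHAM the count of 0 became 2 with array quality weights, 1 at adjusted p under 0.1, 1 with the neural covariate, and 0 to 1 over the fits without 1 library. For ADREX against SHAM in air the count of 4 became 9 with array quality weights, 2 in the fit to the air libraries alone, 8 with DESeq2, 7 at adjusted p under 0.1, 1 at adjusted p under 0.01, and 2 to 7 without 1 library. Under ozone the count of 8 became 12 with array quality weights, 11 with DESeq2, 11 at adjusted p under 0.1, 3 at adjusted p under 0.01, 4 without the 3 libraries richest in neural markers, and 4 to 9 without 1 library. The cause was not tested. The share of all genes that passed moved too. For ADREX against SHAM in air it went from 3.53% to 11.4% with the weights, 6.53% with DESeq2 and 1.66% with the air libraries alone. At adjusted p under 0.1 and under 0.01 it was 6.63% and 0.954%. Under ozone it went from 12.5% to 26.7% with the weights, 17.1% with DESeq2, and 21.2% and 3.96% at those thresholds. Without the 3 neural-rich libraries it was 3.74%. For ozone in SHAM it went from 1.58% to 8.86% with the weights, 3.94% at adjusted p under 0.1 and 1.39% with the neural covariate. Of the log2 changes of the 18 named members under the alternatives, 2601 kept their direction if called and their side of the threshold, 52 lost it, 24 gained it and 0 reversed. Fitting only the compared groups was not run for the difference between the ozone effects. Depth limits Gstm3, Sult1c2 and the 9 low members, where 3 reads correspond to 0.213 to 0.358 RPM.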

Other observations

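The spread of the members between libraries of 1 group was close to that of all genes in SHAM and wider in ADREX air. The median coefficient of variation of the 32 tested members was 24.99% in SHAM air and 18.8% in SHAM ozone, then 39.6% for ADREX air and 29.5% for ADREX ozone, beside 24.6, 18.01, 23.5 and 25.2% for all 12791 genes tested. ADREX air library 67 was the highest of its group in 15 of the 32 members, beside 27.6% of all genes, and ADREX air library 66 the lowest in 17, beside 22.3%. Under ozone, ADREX library 81 was the lowest of its group in 20 of the 32, beside 16.2% of all genes, and the highest in 0. SHAM ozone library 19 was the highest in 16, beside 28.5%. These counts describe members of shared families in the same libraries and were not tested.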
